A study of Mus musculus with 15 samples.

Results

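Chromatin remodeller ATPases were followed through 15 RNA-seq samples of mouse embryonic fibroblasts. The group was 10 genes taken by name (Smarca2, Smarca4, Smarca5, Chd1, Chd2, Chd3, Chd4, Chd7, Chd8 and Ino80), and every transcription unit of the deposited table that carries one of these symbols was included, which gave 22 of 65522 units. Each of the 10 genes had 1 unit on its own strand, and these 10 units are called the members below. A further 11 units carried a member's symbol at the same locus on the opposite strand, and 1 unit listed as Chd1 lay at a different place on the same chromosome (chr17:17374332-17395303, GRCm38), where GENCODE has Riok2. Values are normalised FPKM (fragments scaled to transcript length and library size), so levels of different genes are compared per length. Groups were compared on log2(FPKM + 1) with limma, and a unit was called at a Benjamini-Hochberg adjusted p under 0.05 over all units tested.

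The cells were female, on a C57BL/6 background, and each population came from a separate embryo. Poly(A) RNA was sequenced from cells at high confluence. WT cells were sampled as primary populations before passage 5 (E13.1, E13.8, E14.4) and as the culture-adapted lines grown out of the same 3 populations. CIZ1 null cells carried a homozygous gene-trap allele of Ciz1, which encodes a nuclear matrix protein found at the inactive X chromosome, and were also sampled as primary populations (E13.15, E13.17, E14.2) and as 3 derived lines. Where 3 values of a group follow each other they are in these orders. Primary E13.17 and, by the study's list of cell lines, the adapted line derived from it carried, in addition, transactivator and responder transgenes that express GFP-CIZ1 on addition of doxycycline. Neither was treated. Primary E13.17 was used both as 1 of the 3 primary CIZ1 null populations and as 1 of 2 untreated inducible samples, the other being S13. A pair of inducible samples, S14 and S15, had received 5 to 10 µg per ml doxycycline. The cells of S13, S14 and S15 are labelled as primary too. The study used a pair of inducible CIZ1 null populations, and the labels do not say which of them each treated sample came from, so treated and untreated samples were not paired. Below, the 6 primary samples are the 3 WT and 3 CIZ1 null populations without these. Each adapted line is a single long-term culture, so 3 lines per genotype stand for the adapted state.

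Remodeller ATPases are the motors of complexes that slide, evict or exchange nucleosomes, using the energy of ATP hydrolysis and a Snf2-type motor domain. SWI/SNF (BAF) complexes contain either SMARCA2 (BRM) or SMARCA4 (BRG1), and many ISWI complexes contain SMARCA5 (SNF2H). NuRD contains CHD3 or CHD4 beside histone deacetylases, and the INO80 complex is built on INO80. CHD1 and CHD2 act on transcribed chromatin, and CHD7 and CHD8 form a further branch of the CHD family. In proliferating cells SMARCA4 commonly predominates over SMARCA2, and SMARCA2 is often the more abundant of the pair in quiescent or differentiated ones.

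Ciz1 was at 18.7 to 25.0 FPKM in the 6 WT samples, at 0.0546 to 0.724 in the 7 CIZ1 null samples without doxycycline and at 191 to 296 in S14 and S15, as the genotype and treatment labels state. The 8 fibroblast markers (such as Col1a1, Vim and Thy1) were all at 1 FPKM or more in every primary sample. Thy1 was at only 0.10 in adapted WT E13.8 and 0.234 in adapted CIZ1 null E13.17, and the summed level of the list was 11260 to 12180 FPKM in the 6 primary samples and 2540 to 7703 in the 6 adapted ones. The summed level of 4 epithelial, 4 leukocyte, 4 endothelial, 4 skeletal muscle and 4 neural markers did not exceed 40.1 FPKM in any sample, and the defining muscle gene Myod1 was listed at 0 throughout. Tubb3 of the neural list matched no unit and was not analysed here. Within these lists Des, a muscle intermediate filament, moved with adaptation, from 13.3 to 34.1 FPKM in the 6 primary samples to 0.0660 to 0.906 in the 6 adapted ones, and Map2 reached 37.0 in adapted WT E13.1. Krt18 was at 1.76 to 6.90 in the 6 primary samples and at 0 to 1.04 in the 6 adapted ones. Leukocyte markers went different ways. Cd14 was at 1.33 to 3.74 in the 6 primary samples and at 2.48 to 16.35 in the 6 adapted ones. Cd68 was at 0.468 to 8.86 in the former and at 0 to 0.951 in the latter, and Adgre1 at 0.134 to 3.57 and 0 to 0.1515. Ptprc overlapped, at 0.138 to 0.894 and 0.0724 to 0.808. The part of these other cell type markers in the results below was not tested. The depth of the libraries relative to primary WT E14.4, read from steps in low values, was 1 to 1.63 in primary WT, 1.21 to 1.45 in primary CIZ1 null, 0.621 to 1.19 in adapted WT and 0.542 to 0.902 in adapted CIZ1 null cells, and 0.483 to 1.45 in the 4 inducible samples. The read number behind a single FPKM value is unknown. Among the 4 inducible samples, the highest correlations across 19768 units were between S13 and S15 (r = 0.950) and between E13.17 and S14 (r = 0.937), each 1 untreated and 1 treated sample, and the pair of untreated samples had the lowest (r = 0.905).

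The sequences just before the start sites of Smarca2 and Smarca4 are given because these members differed most between primary and adapted cells, in opposite directions. Both are from RefSeq on GRCm38.p6, on the + strand, and end at the base before the annotated start of the gene. In GENCODE Smarca2 spans chr19:26605050-26778322 and its window is chr19:26604910-26605049, and Smarca4 spans chr9:21616169-21704230 and its window is chr9:21615919-21616168. Capitals mark the GC box (GGGCGG, or CCGCCC on the other strand).
Smarca2: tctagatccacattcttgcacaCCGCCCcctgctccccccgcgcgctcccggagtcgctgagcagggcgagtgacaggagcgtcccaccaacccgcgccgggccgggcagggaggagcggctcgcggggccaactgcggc
Smarca4: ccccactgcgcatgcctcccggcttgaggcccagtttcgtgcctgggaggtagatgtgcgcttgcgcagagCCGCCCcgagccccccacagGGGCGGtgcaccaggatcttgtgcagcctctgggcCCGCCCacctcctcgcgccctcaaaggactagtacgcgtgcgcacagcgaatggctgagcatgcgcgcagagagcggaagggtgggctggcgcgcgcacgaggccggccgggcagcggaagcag
The Smarca2 window of 140 bases holds 1 GC box and is 73.6% G and C, and the Smarca4 window of 250 bases holds 3 and is 70.8% G and C. A GC box was present in 15.3% of 32851 promoter windows cut to the length of the Smarca2 window and in 32.7% of those cut to that of Smarca4. The cut kept the first bases of each listed promoter, so the 140 bases need not be those nearest the start site. Neither the Smarca2 nor the Smarca4 window holds a CCAAT or ATTGG, which were present in 18.7% and 33.8% of windows of the respective lengths. A promoter was listed for 6 of the 10 genes (Smarca2, Smarca4, Smarca5, Chd4, Chd8 and Ino80).

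In levels per length the members covered a wide range. Averaged over the 15 samples, Chd3 was highest at 80.2 FPKM, followed by Chd4 at 59.1, Smarca4 at 34.8, Smarca5 at 30.9, Smarca2 at 25.2, Chd2 at 20.1, Chd8 at 14.3, Chd1 at 12.1 and Ino80 at 7.18. Chd7 stood apart at 0.386. In primary WT cells the order was clear at the top, since the values of Chd3 (71.1 to 95.6), Chd4 (57.0 to 68.9), Smarca4 (43.7 to 45.5), Smarca5 (27.9 to 32.9) and Chd2 (15.5 to 17.4) did not overlap. Below these, Chd1 (12.5 to 14.4), Chd8 (9.92 to 13.4) and Smarca2 (10.1 to 12.9) overlapped, and Ino80 (7.20 to 8.50) lay under them. In adapted WT cells Smarca2 ranked 3 by mean level at 40.6 ± 18.7 FPKM (SD, n = 3), but its values overlapped those of Smarca5 (39.3 ± 13.5), Smarca4 (24.6 ± 7.79) and Chd2 (24.0 ± 4.39). In adapted CIZ1 null cells Smarca2 also ranked 3 (38.3 ± 12.99) and Smarca4 ranked 6 (22.0 ± 6.72), where these ranks had been 6 and 3 in the primary CIZ1 null populations. Between the lowest and the highest sample Smarca2 varied most of the members above 1 FPKM, by 5.8 times, and Chd4 least, by 1.84 times.

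**Figure D1:**
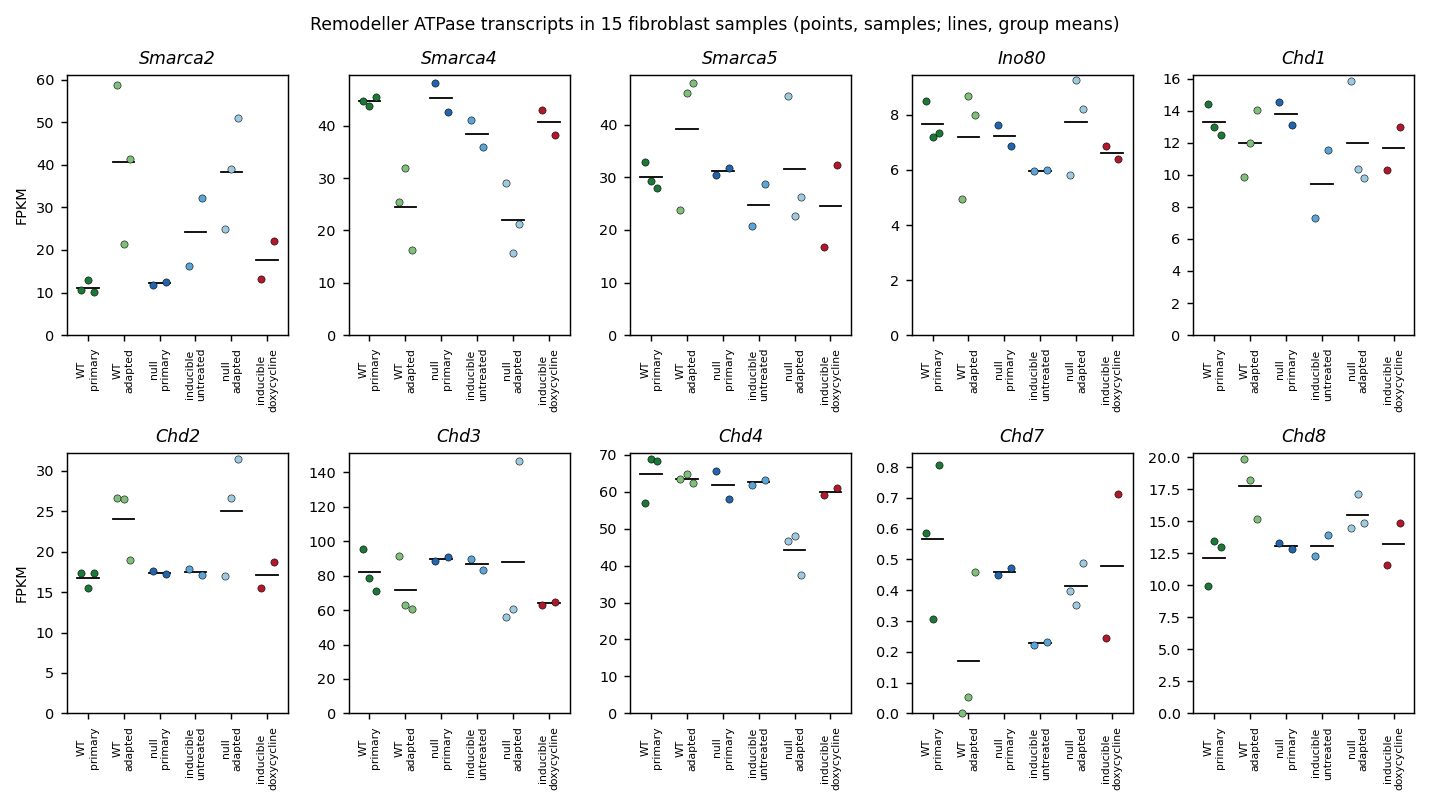
FPKM of the 10 members in each sample (points) by group, with the group mean as a line and a separate linear axis from 0 in each panel. Smarca2 is at 10.1 to 16.3 in the primary WT and primary CIZ1 null populations and at 21.4 to 58.8 in the adapted lines, while Smarca4 is at 41.0 to 48.2 in the former and at 15.7 to 31.8 in the latter. The inducible samples S13 and S15, also labelled primary, are at 32.3 and 22.2 for Smarca2, within the adapted range.

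The effect of culture adaptation was examined first in WT cells. Smarca2 rose in the adapted lines, and no other member was called among the 9 with a mean of at least 1 FPKM. For comparison, 9.55% of the 19919 units tested were called (1902 units, 2.87% higher and 6.68% lower). The groups did not overlap for 4 members, with Smarca2, Chd2 and Chd8 higher and Smarca4 lower in adapted cells, against 38.7% of all units tested (17.3% higher, 21.4% lower), and the unadjusted p was under 0.05 for the same 4, against 30.6% of all units. The median log2 change of the 9 members was -0.02, beside -0.05 for all units tested.

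The same comparison in CIZ1 null cells called none of the 9 members at this threshold in limma, while 4.86% of 20044 units were called (1.4% higher and 3.47% lower). The unadjusted p was under 0.05 for 3 members, Smarca2, Smarca4 and Chd4, against 29.3% of all units. Groups did not overlap for 4 members (Smarca2 and Chd8 higher, Smarca4 and Chd4 lower), against 37.1% of all units (17.5% higher, 19.6% lower). The median log2 change was 0.14 over the members and -0.04 over all units tested. Whether adaptation acted differently in the 2 genotypes was tested by an interaction term, and none of the 9 members or of 20046 units passed in limma (0 units, 0%, with 928 units, 4.63%, and none of the members at an unadjusted p under 0.05). The interaction of the members lay between -0.46 for Chd4 and 0.26 for Ino80 on the log2 scale, and 95% intervals of single members reached from -1.36 to 1.04.

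**Figure D2:**
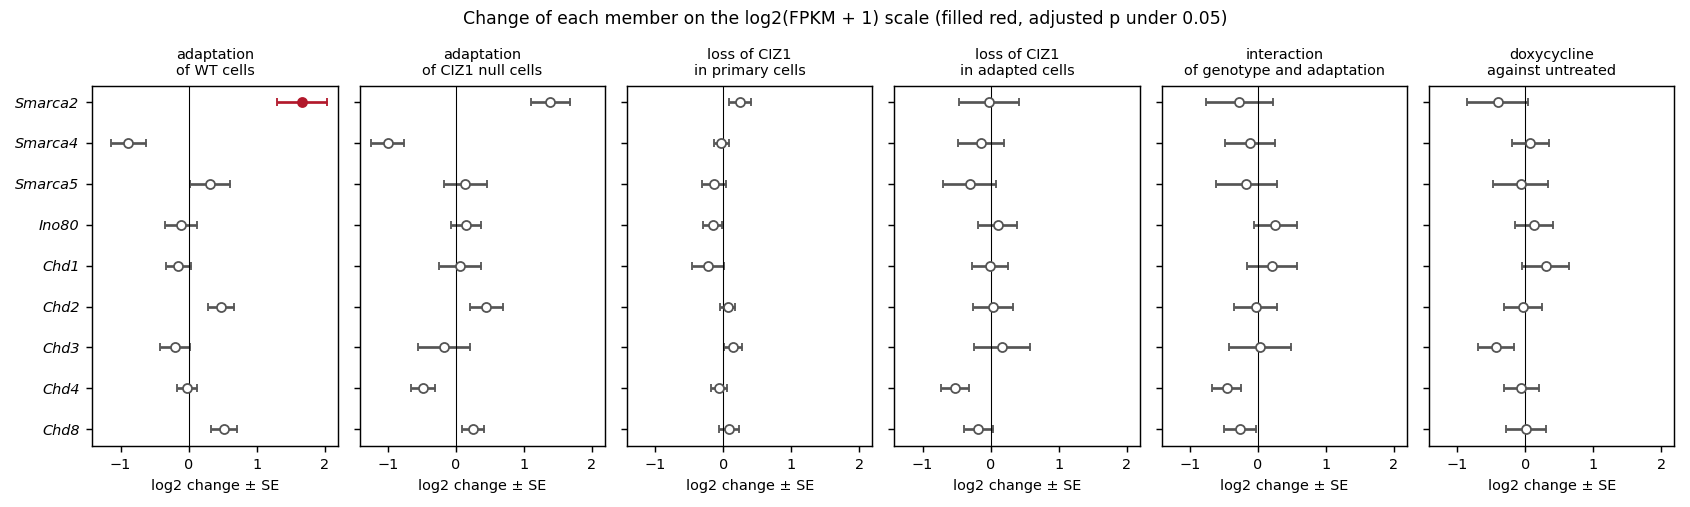
Log2 change of 9 members (points) with its standard error (bars) on the log2(FPKM + 1) scale in 6 comparisons, from limma. The filled point is the single call at an adjusted p under 0.05, Smarca2 in WT adaptation at 1.67, and Smarca4 is the lowest point in both adaptation comparisons at -0.89 and -1.0.

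The SWI/SNF ATPases Smarca2 and Smarca4 showed the largest differences of the group on adaptation. Smarca2 was at 12.9, 10.1 and 10.5 FPKM in the primary WT populations and at 58.8, 21.4 and 41.5 in the lines derived from them. All 3 adapted values lie above all primary ones, and E13.8 moved least. The log2 change was 1.67 with a standard error of 0.362, a 3.17-fold change on the FPKM + 1 scale (adjusted p = 0.0409, limma with Benjamini-Hochberg adjustment). The call held in 8 of 15 alternatives. It was lost without a filter on low values (adjusted p = 0.0724, limma), with the embryo as a block (adjusted p = 0.0553, limma) and without primary E14.4 (0.149), E13.1 (0.120) or E13.8 (0.153), or adapted E13.1 (0.0550) or E14.4 (0.0596), while the log2 change stayed between 1.35 and 2.06. The summed level of fibroblast markers was lower in the adapted WT lines. That of 8 proliferation markers such as Mki67 and Cdk1 was higher (674 to 727 FPKM, against 268 to 398 in primary cells). Single markers did not all follow their sums. Pdgfra was at 60.8, 13.9 and 30.8 FPKM in adapted lines, against 8.96 to 21.3 in primary WT populations. Col3a1 was at 1616 in adapted E13.8, against 418.5 to 465.8 in primary WT populations. Mki67 in adapted E14.4 (19.2) lay among the primary WT values (14.3 to 26.0). The libraries of 2 of the 3 adapted lines were shallower than any primary WT one. The part of these differences in the change of Smarca2 was not tested, and in bulk samples fewer cells of a type and less RNA per cell cannot be told apart.

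In CIZ1 null cells Smarca2 was at 12.5, 16.3 and 11.9 FPKM in the primary populations and at 24.9, 38.9 and 50.9 in the derived lines. Again the groups did not overlap. The untreated inducible sample S13, also labelled primary but outside this group of 3, was at 32.3 FPKM, above adapted E13.15. The log2 change was 1.39 (standard error 0.291, adjusted p = 0.0504, limma), just short of the threshold, and 7 of 17 alternatives called it, among them quantile normalization (adjusted p = 0.0498) and the fit without adapted E13.15 (0.0181). Proliferation markers went a different way in these lines, since their sum was 95.3 to 717 FPKM in adapted and 337 to 425 in primary cells, and Mki67 was at 39.5 in adapted E13.15 but 0.662 in E13.17 and 3.55 in E14.2. The line with the most Mki67, E13.15, had the least Smarca2 of the 3, while among adapted WT lines E13.1 had the most of both (Mki67 at 63.4, against 43.0 in E13.8 and 19.2 in E14.4).

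Smarca4 was steady in primary WT cells, at 43.7, 45.5 and 44.8 FPKM in E13.1, E13.8 and E14.4, and was at 25.5, 31.8 and 16.3 in the derived lines. Every adapted value lies under every primary one, but the log2 change of -0.89 (standard error 0.253) was not called (adjusted p = 0.0728, limma), and was called in 1 of 15 alternatives, the single fit of the 12 samples (0.0455). The CIZ1 null values were 42.6, 41.0 and 48.2 FPKM in the primary populations and 29.1, 15.7 and 21.2 in adapted lines. The log2 change there was -1.0 (standard error 0.248, adjusted p = 0.0651, limma), and 3 of 17 alternatives called it, among them the fit without adapted E13.15 (adjusted p = 0.0232). An opposite-strand unit at the Smarca4 locus, XLOC_059223, described with the others below, was called lower in both genotypes.

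The ratio of Smarca4 to Smarca2 within a sample does not depend on library scaling. It was 3.39, 4.49 and 4.27 in the primary WT populations and 0.434, 1.49 and 0.394 in the derived lines, and it was 3.40, 2.52 and 4.06 in the primary CIZ1 null populations and 1.17, 0.404 and 0.416 in adapted ones. The ratio was thus lower in the adapted line than in its parent in all 6 pairs, and 4 of the 6 adapted lines had more Smarca2 than Smarca4, which was the case in none of the primary populations. The ratio was chosen after the values were seen and was not tested. Among inducible samples S13 (ratio 1.11) and S15 (1.73) lay below E13.17 (2.52) and S14 (3.28), so that both the lower and the higher pair held 1 untreated and 1 treated sample.

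**Figure D3:**
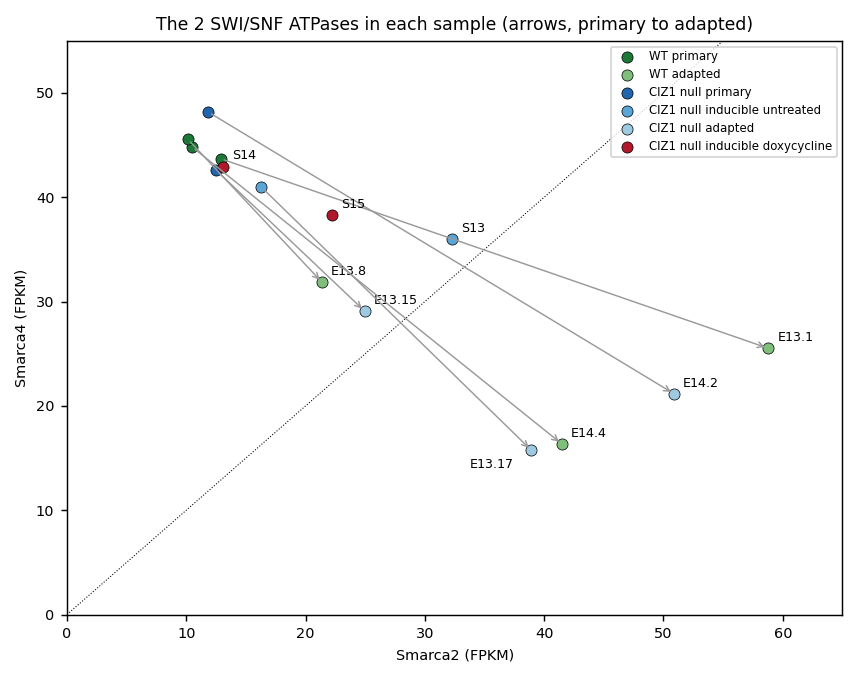
Smarca4 against Smarca2 in FPKM in the 15 samples, with arrows from each primary population to the line derived from it and a dotted line of equal levels. All 6 arrows point down and to the right, and 4 of the 6 adapted lines lie under the dotted line.

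Smarca5 (chr8:80698507-80739965, - strand), an ISWI ATPase that works with partners such as BAZ1A and BAZ1B in spacing nucleosomes, did not differ beyond the spread of the lines. It was at 29.3, 27.9 and 32.9 FPKM in the primary WT populations and at 23.8, 46.1 and 48.0 in the derived lines, lower than its parent in E13.1 and higher in the other two (log2 change 0.31, standard error 0.290, adjusted p = 0.501, limma). Among CIZ1 null samples it was at 31.8, 20.8 and 30.5 in the primary populations and at 45.5, 22.7 and 26.3 in adapted ones (log2 change 0.14, standard error 0.312, adjusted p = 0.790, limma). With the values of both strands summed, these log2 changes turned to -0.17 and -0.40, neither of them called. Over the 15 samples Smarca5 was lowest in S14, at 16.7 FPKM.

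Chd3 (chr11:69342935-69369422, - strand) and Chd4 (chr6:125094091-125144757, + strand), the alternative ATPases of NuRD, were the 2 highest members on average. Chd3 was at 78.7, 71.1 and 95.6 FPKM in the primary WT populations and at 91.3, 63.1 and 60.7 in adapted lines, with overlapping groups (log2 change -0.20, standard error 0.220, adjusted p = 0.573, limma, and 0.08 after quantile normalization). Its highest value anywhere was 147 FPKM in adapted CIZ1 null E14.2, beside 55.9 in adapted E13.15 and 60.6 in E13.17, and the opposite-strand unit of Chd3 was highest in the same library (43.7). The library of E14.2 was the shallowest of the adapted ones, and the part of depth in this value was not tested. Chd4 was at 68.9, 68.3 and 57.0 FPKM in the primary WT populations and at 63.5, 64.7 and 62.4 in adapted ones, and its log2 change was -0.02 with a 95% interval from -0.39 to 0.34 (0.26 after quantile normalization).

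In CIZ1 null cells Chd4 was at 57.9, 61.8 and 65.7 FPKM in the primary populations and at 46.7, 48.1 and 37.5 in the derived lines. The groups did not overlap, yet the log2 change of -0.48 (standard error 0.176) was not called (adjusted p = 0.135, limma). Chd4 was also the one member with an unadjusted p under 0.05 between genotypes, in adapted cells. The ratio of Chd4 to Chd3 was 0.596 to 0.961 in primary WT, 0.695 to 1.03 in adapted WT, 0.639 to 0.743 in primary CIZ1 null and 0.255 to 0.836 in adapted CIZ1 null cells, so it was above 1 only in 2 adapted WT lines, E13.8 and E14.4.

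Chd1 (chr17:15703366-15772616, + strand) and Chd2 (chr7:73426638-73558429, - strand) are related motors that bind chromatin of active genes. Chd2, listed together with 1810026B05Rik, was at 15.5, 17.3 and 17.4 FPKM in the primary WT populations and at 26.6, 26.5 and 18.9 in adapted lines (log2 change 0.48, standard error 0.190, adjusted p = 0.147, limma). All adapted values were higher than the primary ones, with E14.4 closest to them, and without adapted E14.4 the change was called (0.64, adjusted p = 0.0470, limma). Without CIZ1 it was at 17.2, 17.8 and 17.6 in the primary populations and at 17.0, 26.6 and 31.4 in adapted ones, where E13.15 stayed at the primary level (log2 change 0.45, adjusted p = 0.276, limma). Chd1 lay between 12.5 and 14.4 FPKM in primary WT and between 9.86 and 14.1 in adapted WT cells (log2 change -0.15, adjusted p = 0.613, limma). It ranged from 7.33 to 14.5 in primary and from 9.79 to 15.8 in adapted CIZ1 null cells (log2 change 0.06, adjusted p = 0.915, limma). The unit listed as Chd1 at the Riok2 locus lay between 7.52 and 20.7 FPKM over the 15 samples and was called in none of the 6 comparisons.

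Chd8 (chr14:52197502-52257760, - strand), a CHD protein known for mutations in autism and for acting on Wnt target genes, was at 13.4, 13.01 and 9.92 FPKM in the primary WT populations and at 19.8, 18.3 and 15.2 in the derived lines. These groups did not overlap (log2 change 0.52, standard error 0.193, adjusted p = 0.128, limma), nor did those of CIZ1 null cells, at 12.8, 12.3 and 13.3 in the primary populations and 14.5, 17.1 and 14.9 in adapted ones (log2 change 0.25, standard error 0.160, adjusted p = 0.330, limma). Chd7 (chr4:8690406-8904448, + strand), whose loss underlies CHARGE syndrome, was under 1 FPKM in every sample and not tested. It was listed at 0 in adapted WT E13.1 and reached 0.806 in primary WT E13.8. Ino80 (chr2:119372969-119478683, - strand), the motor of its own complex, lay between 4.93 and 9.25 FPKM over all 15 samples, with a log2 change of -0.11 (adjusted p = 0.778, limma) in WT and 0.15 (adjusted p = 0.676, limma) in CIZ1 null adaptation.

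Loss of CIZ1 was compared in primary cells, using the same primary samples as above, and none of the 9 members was called in limma, none had an unadjusted p under 0.05 and none had groups that did not overlap. Of all 19566 units tested 0.00511% were called, 6.26% had an unadjusted p under 0.05 and 11.9% did not overlap (6.13% higher, 5.72% lower). The changes were small, from -0.22 for Chd1 to 0.25 for Smarca2, and the 95% intervals of single members reached from -0.80 to 0.64. Smarca4 was at 44.7 ± 0.930 FPKM in WT and 43.9 ± 3.76 in CIZ1 null cells (SD, n = 3 each, 95% interval of the log2 change -0.29 to 0.24), and Chd4 at 64.8 ± 6.70 and 61.8 ± 3.88 (-0.35 to 0.23). Smarca2 was at 11.2 ± 1.49 and 13.5 ± 2.37 FPKM (log2 change 0.25, standard error 0.164, adjusted p = 0.822, limma), with the highest value in the transgenic population E13.17.

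In adapted cells, compared between genotypes with the same adapted lines as above, no member was called in limma either (0.00501% of 19976 units were), and intervals were wider. Chd4 was at 63.5 ± 1.17 FPKM in WT and 44.1 ± 5.80 in CIZ1 null lines (SD, n = 3 each), and its groups did not overlap. Its log2 change was -0.52 (standard error 0.207, 95% interval -1.02 to -0.03, unadjusted p = 0.0408, adjusted p = 0.998, limma). It was the sole member with an unadjusted p under 0.05, against 4.02% of all units, and the sole one whose groups did not overlap, against 8.28% (4.55% higher and 3.74% lower in CIZ1 null cells). Smarca2 was at 40.6 ± 18.7 in WT and 38.3 ± 12.99 in CIZ1 null lines, where the 95% interval of the log2 change ran from -1.07 to 1.02.

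Re-expression of CIZ1 was examined by comparing S14 and S15 with the untreated E13.17 and S13, of which E13.17 is also among the primary CIZ1 null populations above. With 2 samples against 2, no member was called in limma (0.0101% of 19768 units were), and none had an unadjusted p under 0.05, against 1.76% of all units. Chd3 was at 89.9 and 83.1 FPKM in E13.17 and S13 and at 63.1 and 64.6 in S14 and S15, and so did not overlap (log2 change -0.43, standard error 0.261, adjusted p = 1.0, limma). Chd4 (61.8 and 63.2 against 59.0 and 61.0) and Ino80 (5.96 and 5.99 against 6.87 and 6.38) did not overlap either, while 19.7% of all units tested were of this kind (8.92% higher, 10.8% lower). Smarca2 was at 16.3 and 32.3 FPKM in untreated E13.17 and S13 and at 13.1 and 22.2 in S14 and S15, which overlap, and the 95% interval of its log2 change ran from -1.51 to 0.69. Samples were not paired by population, so any difference between the populations is part of this spread.

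Strand adds a further layer to these loci. The library kit does not mark strand, so reads of a gene and of a unit on its opposite strand cannot be told apart by strand. The opposite-strand units share the locus boundaries of the members, namely 1 each for Smarca2, Chd1 and Chd3 and 2 each for Smarca4, Smarca5, Chd4 and Ino80. GENCODE places antisense genes in the Smarca2 unit (chr19:26605050-26823907), Gm20616 at chr19:26620822-26623419 and 4931403E22Rik at chr19:26768801-26823907, whose own units were listed at 0 in all 15 samples. The Chd4 unit also covers the gene Nop2 (chr6:125131909-125144753), which has a unit of its own with values above 0 in all 15 samples. Of the opposite-strand units at Chd4 1 is listed as Chd4 and Nop2, so the Chd4 values are less certain.

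Each of Smarca4, Chd4 and Smarca5 had an opposite-strand unit with lower values in adapted cells. At Smarca4 this unit (XLOC_059223) was at 10.8, 12.4 and 8.60 FPKM in the primary WT populations and at 4.18, 5.74 and 3.71 in the derived lines, and fell by 1.07 on the log2 scale (standard error 0.218, adjusted p = 0.0359, limma). Among CIZ1 null samples it was at 11.1, 10.2 and 10.0 in the primary populations and at 4.44, 3.62 and 4.59 in adapted lines, and fell by 1.14 (standard error 0.167, adjusted p = 0.0270, limma). The call held in 8 of 14 alternatives in WT and in 10 of 16 in CIZ1 null cells. With the embryo as a block neither passed (adjusted p = 0.0556 and 0.0904, limma). Without single libraries the call was also lost in WT cells, for each primary sample (adjusted p from 0.0984 to 0.151, limma) and adapted E13.1 (0.0601), and in CIZ1 null cells, for each primary sample (from 0.102 to 0.148) and adapted E14.2 (0.0622).

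At Chd4, XLOC_048969 was at 14.1, 13.9 and 13.7 FPKM in the primary CIZ1 null populations and at 7.05, 6.39 and 5.56 in adapted ones, and fell by 1.03 (standard error 0.163, adjusted p = 0.0303, limma). The call held in 9 of 16 alternatives. Among others it was lost with the embryo block (0.0980), without each primary sample (from 0.112 to 0.159) and without adapted E14.2 (0.0748). In WT cells the same unit was at 15.5, 14.4 and 12.03 in the primary populations and at 9.64, 6.77 and 7.60 in adapted lines, which do not overlap, and the log2 difference was -0.74 (standard error 0.194, adjusted p = 0.0614, limma). At Smarca5, XLOC_055632 was at 33.0, 26.4 and 29.8 FPKM in the primary WT populations and at 8.30, 14.3 and 17.5 in adapted ones (log2 change -1.15, standard error 0.280, adjusted p = 0.0520, limma). Without CIZ1 it was at 39.7, 21.2 and 29.1 in the primary populations and at 16.5, 8.96 and 5.76 in adapted lines (log2 change -1.51, standard error 0.399, adjusted p = 0.0734, limma). The second Smarca5 unit, XLOC_055631, went the other way, from 3.25, 2.23 and 3.47 FPKM to 4.04, 6.32 and 6.24 in WT cells (log2 change 0.71, adjusted p = 0.102, limma) and from 3.23, 2.07 and 2.42 to 6.55, 3.91 and 3.75 without CIZ1 (log2 change 0.66, adjusted p = 0.149, limma), with groups that did not overlap in either genotype and no call. The log2 changes of the second Smarca4 unit, XLOC_059222, were 0.04 and -0.29 in WT and CIZ1 null cells, and those of the unit listed as Chd4 and Nop2, XLOC_048968, were -0.85 and -1.11, none of them called (adjusted p from 0.0884 to 0.925, limma). The groups of XLOC_048968 overlapped in WT cells. In CIZ1 null cells they did not, at 20.1, 22.0 and 20.4 FPKM in the primary populations and 13.9, 10.1 and 5.27 in adapted lines. Of the 11 opposite-strand units 1 was called in WT and 2 in CIZ1 null adaptation, all lower, beside the 6.68% and 3.47% of all units called lower. The opposite-strand unit of Smarca2 was at 2.83 to 5.91 FPKM in the 6 primary and 6.33 to 19.7 in the 6 adapted samples, with log2 changes of 1.58 (adjusted p = 0.0622, limma) in WT and 1.20 (adjusted p = 0.0538, limma) in CIZ1 null cells, the direction of the gene-strand unit. It was at 12.3, 7.86 and 9.69 FPKM in S13, S14 and S15. None of the 11 was called for loss of CIZ1, the interaction or doxycycline.

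The share of a locus's FPKM on opposite-strand units separated the 6 primary from the 6 adapted samples at Smarca5 and Chd4. At Smarca5 it was 50.2% to 57.4% in the 6 primary samples and 26.5% to 36.2% in the 6 adapted ones, and at Chd4 it was 33.5% to 37.7% and 19.1% to 30.9%. For the other 5 loci with such units the shares of primary and adapted samples overlapped, and stayed between 16.7% and 37.5% over all 15 samples. S13 and S15 were at 32.5% and 36.9% for Smarca5, with the adapted lines or just above them, and S14 was at 65.1%, above all primary samples. For Chd4 S13 and S15 were at 21.6% and 24.0%, within the range of the adapted lines, and S14 was at 37.95%. These shares are a description and were not tested.

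**Figure D4:**
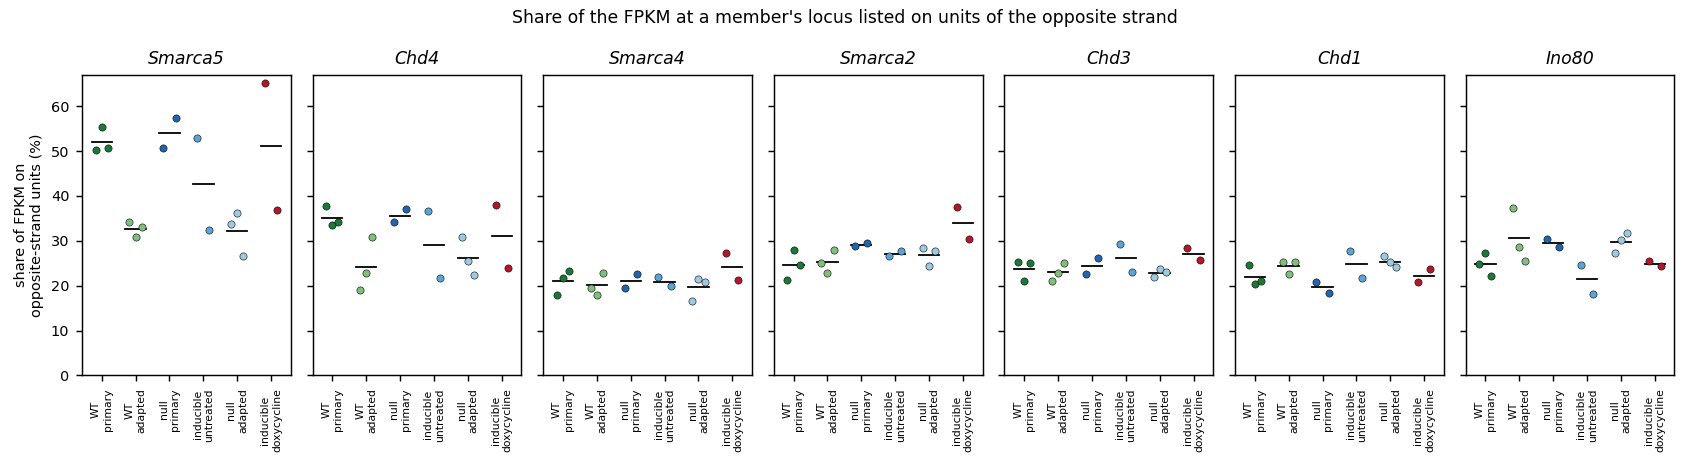
Percent of the FPKM at each of 7 member loci that lies on opposite-strand units, by sample (points) and group. The 6 primary samples, of which E13.17 is drawn as inducible untreated, lie above all adapted lines at Smarca5 (50.2% to 57.4%) and Chd4 (33.5% to 37.7%), while the other 5 loci overlap, and at Smarca5 S13 and S15 are at 32.5% and 36.9%. At Chd4 S13 and S15 are at 21.6% and 24.0%, within the adapted range.

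The wider remodelling machinery was counted over 5 lists of genes, in which a gene can have units on both strands. Of 20 other Snf2-family ATPases, 2 of 31 units tested rose on WT adaptation and none fell. Of 25 BAF and PBAF subunits 1 of 39 units rose, of 17 INO80 and SRCAP subunits 1 of 22 rose and 1 fell, and none of 10 units of ISWI partners or 20 of NuRD subunits passed in limma. These counts stand beside 2.87% of all units called higher and 6.68% called lower. Of the 5 called units 4 lay opposite to their gene, those at Atrx, Hltf, Pbrm1 and Yy1, and the unit of Actr6 was the only one on the gene's own strand. The unadjusted p was under 0.05 for 15 units of other ATPases, 14 of BAF and PBAF, 7 of INO80 and SRCAP, 1 of ISWI partners and 4 of NuRD, against 30.6% of all units. The medians of the log2 change were 0.46 for other ATPases, 0.02 for BAF and PBAF, 0.05 for INO80 and SRCAP, 0.20 for ISWI partners and -0.17 for NuRD, beside -0.05 for all units.

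In CIZ1 null adaptation the sole call in the 5 lists was the same opposite-strand unit at Yy1, lower, against 3.47% of all units. The medians there were 0.19 for other ATPases, -0.06 for BAF and PBAF, -0.10 for INO80 and SRCAP, 0.11 for ISWI partners and -0.38 for NuRD, beside -0.04 for all units. For NuRD 11 of 20 units had an unadjusted p under 0.05, against 29.3% of all units, and 7 of 13 on the strand of the gene. With the embryo as a block none of these units passed in either genotype. No unit of the 5 lists was called in limma for loss of CIZ1, the interaction or doxycycline, where at most 2 units of a list had an unadjusted p under 0.05.

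Yy1, a zinc finger protein that is also a subunit of INO80, had units that went different ways. The unit on the gene's strand was at 28.4, 25.9 and 21.6 FPKM in the primary WT populations and at 22.97, 30.4 and 22.8 in the derived lines, and at 26.7, 29.6 and 24.3 against 25.5, 32.2 and 22.7 in CIZ1 null cells. Both pairs of groups overlapped, and the log2 changes were 0.0029 and -0.01 (adjusted p = 0.993 and 0.968, limma). The called unit, XLOC_013377, lies opposite to the gene. It was at 12.4, 11.8 and 11.6 FPKM in the primary WT populations and at 4.38, 6.99 and 4.09 in the derived lines, and at 14.98, 14.95 and 11.4 in the primary CIZ1 null populations against 3.75, 6.26 and 5.18 in adapted ones. It fell by 1.10 (standard error 0.217, adjusted p = 0.0329, limma) and by 1.29 (standard error 0.226, adjusted p = 0.0355, limma). Another opposite-strand unit, XLOC_013378, was not called (log2 changes 0.27 and 0.34). Among inducible samples the called unit was at 14.95 in E13.17 and 15.7 in S14, but at 5.88 in S13 and 5.62 in S15.

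At Atrx, the remodeller that deposits H3.3 with DAXX, the opposite-strand unit was at 5.64, 5.39 and 5.12 FPKM in the primary WT populations and rose to 11.9, 11.7 and 9.89 (log2 change 0.93, standard error 0.160, adjusted p = 0.0247, limma). The unit on the gene's strand was at 21.1, 18.5 and 17.6 and at 34.2, 32.2 and 24.7, with no overlap and no call (log2 change 0.64, adjusted p = 0.0781, limma). In adapted CIZ1 null lines both units were high in E13.15 (12.3 opposite, 31.0 on the gene's strand) and E14.2 (10.7 and 31.8), and in E13.17 (4.75 and 14.8) both lay under all primary values. At Hltf, a fork-remodelling ubiquitin ligase, the opposite-strand unit rose on WT adaptation from 1.18 ± 0.131 to 3.42 ± 0.850 FPKM (SD, n = 3 each, log2 change 1.01, adjusted p = 0.0408, limma). The unit on the gene's strand, at 3.61 ± 1.23 and 8.08 ± 2.61, was not called (log2 change 0.97, adjusted p = 0.0910, limma). In CIZ1 null cells the former unit was at 1.42 in primary and 2.97 in adapted cells, and the latter at 3.98 and 6.69. Neither overlapped and neither was called (adjusted p = 0.0846 and 0.0826, limma).

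At Pbrm1, a bromodomain subunit particular to PBAF, the opposite-strand unit rose on WT adaptation from 8.58 ± 0.846 to 15.3 ± 1.93 (log2 change 0.76, adjusted p = 0.0439, limma). In CIZ1 null cells it was at 8.35 in primary and 11.6 in adapted cells, with no overlap and no call (adjusted p = 0.165, limma). The unit on the gene's strand, listed together with Glt8d1, was at 20.4 ± 2.09 and 34.1 ± 5.33 in WT cells and was not called (log2 change 0.71, adjusted p = 0.0594, limma). Actr6, an actin-related subunit of SRCAP, rose on its own strand on WT adaptation from 3.06 ± 0.519 to 7.90 ± 1.74 (log2 change 1.12, adjusted p = 0.0319, limma). In CIZ1 null cells it was at 3.47 ± 0.278 and 7.37 ± 1.61, with no overlap and no call (log2 change 0.89, adjusted p = 0.0581, limma). Since the kit does not mark strand, reads of the pair of units at each of these loci cannot be told apart by strand.

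**Figure D5:**
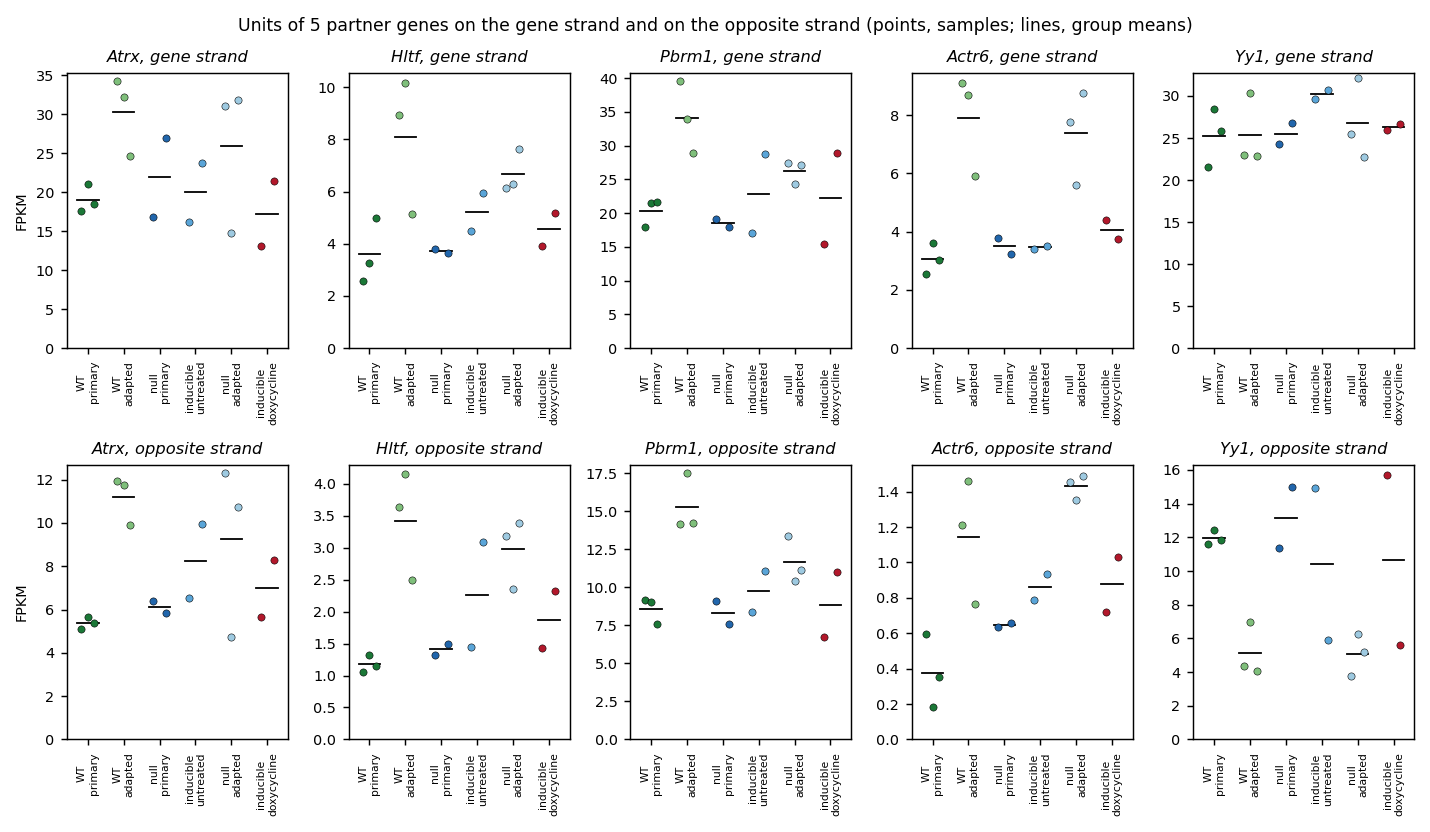
FPKM per sample (points) and group mean (line) of units at Atrx, Hltf, Pbrm1, Actr6 and Yy1, each on a linear axis from 0, with the unit on the gene's strand in the upper row and the highest opposite-strand unit in the lower one. The opposite-strand unit at Yy1 is at 11.4 to 14.98 in the 6 primary WT and CIZ1 null samples and at 3.75 to 6.99 in the 6 adapted lines, while the unit on the gene's strand is at 21.6 to 29.6 and 22.7 to 32.2.

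The units whose log2(FPKM + 1) followed each member most closely over the 15 samples were searched among 11668 units with a gene symbol and a mean of at least 5 FPKM. The points share libraries and the primary or adapted state, so the values describe these samples only. For Smarca2 they were its own opposite-strand unit (Pearson r = 0.957), Casp12 (0.951) and Tmem106b (0.945), and for Smarca4 they were Kdelr2 (0.975), Tns1 (0.967) and Pip5k1c (0.966). Smarca5 was followed by Abce1 (0.929), G3bp2 (0.927) and Rbbp8 (0.918), Chd8 by Ptx3 (0.927), Setdb1 (0.926) and Cspp1 (0.917), and Chd2 by Cstf2t (0.928), Dclk1 (0.914) and Snhg18 (0.895). The closest units were Ankib1 with Gm43679 for Chd1 (0.918, then Kctd9 at 0.893 and Mtpn at 0.885) and Vegfa for Ino80 (0.891, then Tgif1 at 0.885 and Ank at 0.864). Chd4 had Tma7-ps (0.869), Ppp4r2 (0.856) and Sart3 (0.852), and Chd3 had its own opposite-strand unit (0.881) and then only Gm10704 (0.764) and Fnbp1 (0.745). Of the units named here, those at Tmem106b, Tns1, Snhg18, Ptx3, Vegfa and Ank also lie opposite to the gene whose symbol they carry.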

How the data were processed

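RNA from 15 samples of mouse embryonic fibroblasts was analysed from a table of FPKM values. The authors trimmed reads with cutadapt 1.8.3, aligned them to GRCm38 with HISAT2 2.0.5 and deposited FPKM normalised across samples with Cuffnorm of the Cufflinks package, 1 value per assembled transcription unit and sample. Their comparison table, which holds fold changes and p-values of Cuffdiff 2.2.1, was not used. Being FPKM, the values carry no read counts, so no interval for counting error is given.

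Groups followed the sample labels. The embryo of each sample was read from the names of the matching lines in the study's supplementary tables, whose values were identical to the deposited ones in 100% of cases. Units on the strand of their block were identified from the order of the table, since 98.25% and 98.19% of single-gene units in its 2 blocks lay on a single GENCODE strand.

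Units with a mean of at least 1 FPKM in the samples compared were tested on log2(FPKM + 1), a scale that understates changes of low units, with limma 3.58.1 (R 4.3.3, empirical Bayes with an intensity trend) and Benjamini-Hochberg adjustment at 0.05. The fits were tested on simulated data. Tables and plots were made with pandas 2.3.3, NumPy 2.4.6 and Matplotlib 3.10.9 in Python 3.11.15. The 6 comparisons were adaptation in each genotype, CIZ1 null against WT in each culture state, their interaction, and doxycycline. Primary and adapted cells of 1 embryo are paired by origin. The correlation of their deviations from the group means was 0.146, -0.01 and 0.211 for the WT embryos E13.1, E13.8, E14.4. For the CIZ1 null embryos E13.15, E13.17, E14.2 it was 0.106, 0.0881 and -0.02. Fits with the embryo as a block were run as alternatives, with another pseudocount, other filters, 2 other normalizations, array weights, a single fit and each sample left out.

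The members and lists were chosen with earlier results of these data known. Named genes are every unit with a member's symbol, the called units of the 5 lists, and the 3 units most like each member. Promoter sequences are from RefSeq (GRCm38.p6), and coordinates are those of the deposited table or GENCODE, in GRCm38.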

Additional observations from a re-analysis of the deposited data

How the results depend on the processing

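No called change turned sign. The sign of small, uncalled changes turned under at least 1 alternative for 4 of 9 members in WT adaptation (Chd3, Chd4, Ino80 and Smarca5), 3 in CIZ1 null adaptation (Chd1, Chd3 and Smarca5), 4 between genotypes in primary cells and 6 in adapted ones, 6 for the interaction and 5 for doxycycline. Of the members, none was called for loss of CIZ1, the interaction or doxycycline under any alternative. The number of members called in WT adaptation was 1, and was 0 without a filter on FPKM, 0 with the embryo as replicate block, 2 in a single fit of the 12 samples and 0 to 1 when each sample was left out. In CIZ1 null adaptation it was 0, and was 1 with a mean of at least 5 FPKM, with quantile normalization, with median-ratio size factors and with the units of a gene summed (an alternative chosen after seeing the data), 2 with array weights and in the single fit, and 0 to 2 when each sample was left out. The cause was not tested.

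The number of all units called in WT adaptation (1902) was 988 without a filter, 499 with the embryo as replicate block and 62 to 2972 when each sample was left out (70 without primary E13.1, 65 without primary E13.8, 62 without primary E14.4 and 2972 without adapted E14.4). In CIZ1 null adaptation (975) it was 322 without a filter, 1936 with array weights, 2969 in the single fit, 10 with the replicate block, 30 with the 2 primary samples without the transgene, 449 with 4 untreated samples and 25 to 2999 when each was left out (30 without primary E13.15 or E13.17, 25 without primary E14.2, 2999 when adapted E13.15 was left out and 40 when adapted E14.2 was). For loss of CIZ1 in primary cells (1) it was 3 with a pseudocount of 0.1, 3 without the transgenic sample, 2 with 4 untreated samples and 1 to 5 by leaving out samples. In adapted cells (1) it was 0 with the pseudocount of 0.1, without a filter, with a mean of at least 5 FPKM and with quantile normalization, 10 in the single fit and 0 to 4 by leaving out samples. The interaction (0) gave 2 with a pseudocount of 0.1 and 0 to 234 by leaving out samples (234 without adapted CIZ1 null E13.15 and 7 without E13.17). Doxycycline (2) gave 0 without a filter and 0 to 6 by leaving out samples.

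Quantile normalization moved the median log2 change of all units in WT adaptation from -0.05 to 0.06 and the calls from 572 higher of 1902 to 982 of 2063, and in CIZ1 null adaptation from 280 of 975 to 351 of 852. Depth is unknown in reads, and the lowest member, Chd7, could not be tested.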
